A study of Mus musculus with 36 samples.

Results

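Among 21650 genes with expression values, 8 of the 9 genes described here were measured: the eosinophil-associated ribonucleases Rnase2a and Ear2, the granule protein gene Prg2, the surface receptors Siglecf and Ccr3, the eotaxins Ccl11 and Ccl24, and the cytokine Il5. The ninth, the granule peroxidase Epx, had a mean normalized count of 1.71 in the authors' table and no row among the expression values. Rnase2a was chosen by its large difference between 4T1 and Py230 primary tumors in these same libraries, and the other 8 were named as eosinophil genes to be set beside it. The values of that contrast are therefore given as a description, and Rnase2a was not tested in it. Rnase2a was tested only between the Matrigel glands, which are not in that contrast as computed here. The study's own models used the Matrigel controls to account for time effects.

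Lactating female mice received tumor cells suspended in PBS and Matrigel, a basement membrane gel, or Matrigel without cells. Inoculation was through the teat canal of the third mammary gland after their pups were weaned. BALB/c mice received 4T1 cells, a metastatic triple-negative mammary carcinoma line from that strain that carries luciferase, and C57BL/6 mice received Py230 cells, a mammary tumor line from that strain. Matrigel-inoculated glands of each strain were the controls, and tissue was taken at weeks 1, 3 and 6 after inoculation, with 3 libraries in each of the 12 groups. Each model is 1 cell line in 1 mouse strain, and Py230 cells were given at a higher dose than 4T1 cells. Line, dose and strain therefore cannot be told apart between the tumors, whereas the Matrigel glands measure the strain without tumor cells. The study calls the tumor samples of a group independent and gives no such statement for the Matrigel glands. Where libraries did not come from separate animals, p-values measure a spread that may be partly technical.

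The deposited values are scores, centred on 0 in each library with the SD of its genes as the unit. Across genes, 1 score unit matched 2.78 log2 units of the authors' mean normalized count. Counts per library were not analysed here, so the depth behind a value is unknown and the precision rests on the spread between libraries. The 5 milk protein genes that mark lactating epithelium had mean scores above 1 in every library at week 1, and -0.70 to -0.67 in 4T1 tumors at week 6. The Py230 samples at week 1 differed from C57BL/6 Matrigel glands in 2 of 21650 genes.

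Eosinophils are granulocytes that mature in the bone marrow under interleukin 5 (Il5) and enter tissues along eotaxins, chemokines that bind the receptor CCR3. Their granules hold major basic protein (Prg2), eosinophil peroxidase (Epx) and ribonucleases, and mouse eosinophils carry the sialic acid receptor Siglec-F. The mouse ribonuclease family has expanded into many similar genes on chromosome 14, and some of its members, Rnase2a among them, are also made by macrophages. Granule genes are transcribed mostly in the maturing cell in the bone marrow, and eosinophils are part of the normal mammary stroma.

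Rnase2a lies on the minus strand of chromosome 14 (GRCm38, 51255262 to 51256112) and Ear2 on the plus strand of the same chromosome (44102654 to 44103534). Their upstream sequences are shown because both genes belong to 1 family yet differ in how they were expressed between the strains. Each line holds the 250 bases before the RefSeq gene start (GRCm38.p6), with the match to a C/EBP-type core, TTGCNNAA, in capitals.
Rnase2a, chr14:51256113-51256362, minus strand: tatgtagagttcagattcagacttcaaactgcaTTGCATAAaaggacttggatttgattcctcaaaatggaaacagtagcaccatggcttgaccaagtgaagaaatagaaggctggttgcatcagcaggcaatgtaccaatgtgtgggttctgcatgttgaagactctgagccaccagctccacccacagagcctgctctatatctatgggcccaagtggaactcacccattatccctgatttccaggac
Ear2, chr14:44102404-44102653, plus strand: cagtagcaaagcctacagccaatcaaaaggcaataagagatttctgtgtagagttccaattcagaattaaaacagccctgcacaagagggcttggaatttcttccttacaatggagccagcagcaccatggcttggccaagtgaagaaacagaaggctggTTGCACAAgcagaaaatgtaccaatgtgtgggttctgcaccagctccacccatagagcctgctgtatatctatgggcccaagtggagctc
The stretches that could be aligned were identical at 178 of 206 bases (86.4%). The capitals begin at -217 in Rnase2a (TTGCATAA) and at -90 in Ear2 (TTGCACAA), and 9.55% of 27025 promoter windows of this length held such a match on either strand. Neither window held the GATA hexamer AGATAA, which 10.3% of the windows did. In the transcripts, 0 of the 616 stretches of 75 bases in Rnase2a, the length of 1 read, occurred in Rnase2b, Ear1, Ear2, Ear6, Ear10 or Ear14. Further family members were not compared, and the sequences are those of the reference genome, not of each strain. In Ear2, 142 of 645 such stretches occurred also in Ear1 or Ear10. Reads from those stretches cannot be told apart among the 3 genes, so the Ear2 values carry that uncertainty.

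In every week, all BALB/c libraries had higher Rnase2a scores than all C57BL/6 libraries. Among the tumors, which selected the gene, line, dose and strain cannot be told apart. In 4T1 tumors its scores were 1.97, 0.65 and 2.15 at week 1, 2.23, 1.45 and 0.86 at week 3, and -0.63, -0.10 and 0.17 at week 6. In BALB/c Matrigel glands they were -0.66, -0.30 and -0.66, then 0.35, -0.46 and 0.23, and then 0.41, 0.21 and -0.50. The 4T1 tumors at weeks 1 and 3 stood above all BALB/c glands of the same week, and at week 6 tumors and glands overlapped. All 18 libraries from C57BL/6 mice lay between -1.54 and -1.20, whether they held Py230 cells or Matrigel, and all 18 BALB/c libraries lay above them. By group mean, 4T1 tumors of weeks 1 and 3 came first (1.59 and 1.51), then BALB/c glands of weeks 3 and 6 (both 0.04), 4T1 tumors of week 6 (-0.19) and BALB/c glands of week 1 (-0.54), and the 6 C57BL/6 groups came last. Neighbours in this order overlapped at every step but 2, the one below the early 4T1 tumors and the one between the strains. In bulk tissue, fewer cells of a type and less RNA per cell cannot be told apart.

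**Figure D1:**
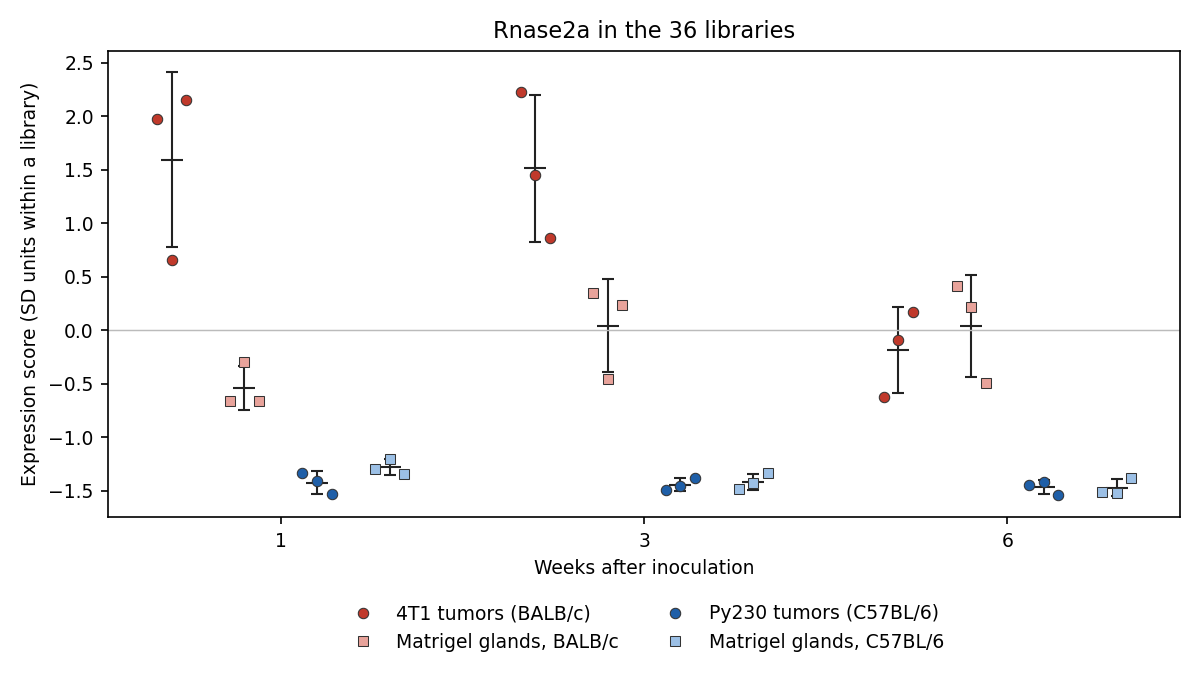
Expression scores of Rnase2a (vertical axis, SD units within a library) in 4T1 tumors, Py230 tumors and Matrigel glands of both strains against weeks after inoculation. Points are libraries, and horizontal marks with bars are the group mean and SD (n = 3). The 4T1 tumors at weeks 1 and 3 sit between 0.65 and 2.23, and all C57BL/6 libraries sit at or below -1.20.

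As a description of the contrast that selected it, the mean Rnase2a score of 4T1 tumors exceeded that of Py230 tumors by 3.02 (SE 0.30), 2.96 (SE 0.30) and 1.28 (SE 0.30) at weeks 1, 3 and 6. Once the difference between the Matrigel glands of the 2 strains was subtracted, these values were 2.28, 1.5 and -0.23. The glands without tumor cells, which were tested, also differed. Rnase2a was 1.46 score units higher in BALB/c than in C57BL/6 glands at week 3 (SE 0.30, limma adjusted p = 0.0033) and 1.51 higher at week 6 (SE 0.30, limma adjusted p = 0.00218). At week 1 the difference was 0.74 (SE 0.30, limma adjusted p = 0.28), and the 3 libraries of each strain still did not overlap. The strain call held at weeks 3 and 6 when any 1 of the libraries compared was left out.

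No other gene of the 8 was called higher in BALB/c glands. Prg2 was the only other one to pass between the strains, 0.53 lower in BALB/c glands at week 6 (SE 0.14, limma adjusted p = 0.0316). That call was lost without any of 5 of the 6 libraries, all but BALB/c replicate 1, with adjusted p of up to 0.207. At weeks 1, 3 and 6, 0, 1 and 2 of the 8 genes passed, where 3.06%, 3.77% and 3.84% of all genes did. At week 1, 1 of the 8 was below 0.05 before adjustment.

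Most of the other eosinophil genes were higher in 4T1 tumors than in BALB/c Matrigel glands at week 1, and fewer passed at week 3. Rnase2a itself, not tested here, was 2.13 (SE 0.30), 1.47 (SE 0.30) and -0.23 (SE 0.30) above the glands at weeks 1, 3 and 6. Of the other 7 measured genes, 5 were higher at week 1 by limma's test (Ear2, Ccl24, Siglecf, Prg2 and Il5), against 9.91% of all genes. At week 3, 3 were higher (Ear2, Siglecf and Il5), against 2.10% of all genes, with all 7 differences positive. At week 6, 2 were lower (Ear2 and Ccl11) and 1 higher (Il5), in a comparison where 60.1% of all genes passed in either direction. The counts at week 1 turned on single libraries, with 1 gene left without 4T1 replicate 1, 0 without 4T1 replicate 3, 0 without BALB/c replicate 2, and 7 without 4T1 replicate 2. At week 3, 0 were left without 4T1 replicate 1 or BALB/c replicate 2, 1 without BALB/c replicate 3, 2 without BALB/c replicate 1, and 5 passed without 4T1 replicate 3. When only the 6 libraries compared were fitted, all 5 calls of week 1 (adjusted p of 0.145 to 0.147) and all 3 of week 3 (adjusted p of 0.479 to 0.510) were lost. The genes of the lists set beside these genes showed the same. Of 44 list genes called at week 1, 0 passed in that fit, 9, 0 and 2 passed without 4T1 replicate 1, 4T1 replicate 3 or BALB/c replicate 2, and at least 34 without any other library. Of 27 called at week 3, 0 passed in that fit, 0 without 4T1 replicate 1, 4, 0 and 1 without BALB/c replicates 1, 2 and 3, and at least 24 without the other 4T1 libraries. Of 56 called at week 6, 49 to 53 passed under these settings, which were added after the values were seen. The share of all genes that passed under these settings was not counted, so the losses cannot be called particular to the named genes.

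**Figure D2:**
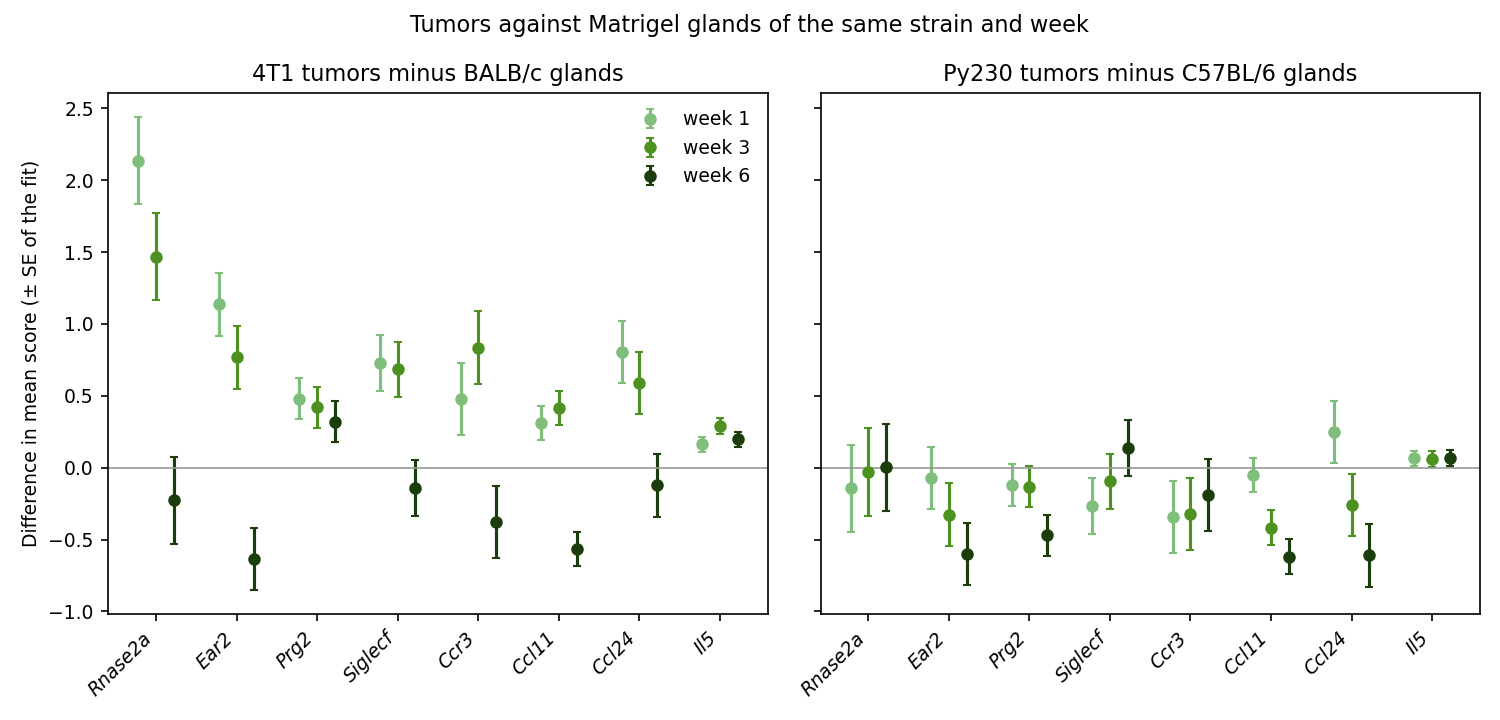
Differences in mean score between tumors and Matrigel glands of the same strain (vertical axis, score units, with the SE of the fit) for the 8 measured genes at weeks 1, 3 and 6. In 4T1 tumors every gene was above 0 at weeks 1 and 3, from 0.16 for Il5 to 2.13 for Rnase2a at week 1, and in Py230 tumors the largest fall was -0.62 for Ccl11 at week 6.

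Counts for the contrast that selected Rnase2a are a description, also once the strain difference is subtracted, because its tumor libraries made the selection. With Rnase2a left out, 3, 6 and 2 of the other 7 measured genes passed at weeks 1, 3 and 6. Of all genes, 19.4%, 30.3% and 40.8% passed. In the first 2 weeks sampled the 4T1 mean lay above the Py230 mean for all 7. At week 6 Ear2 was 0.56 lower (SE 0.22), Ccl24 0.75 higher (SE 0.22), and the difference was 0.01 (SE 0.19) for Siglecf and 0.05 (SE 0.12) for Ccl11. Once the difference between the strains' glands was subtracted, 0, 3 and 1 of the 7 passed by limma, and 0.305%, 9.15% and 25.5% of all genes did, with 5 of the 7 below 0.05 before adjustment at week 1. The week 6 values were then -0.04 (SE 0.31) for Ear2, 0.49 (SE 0.31) for Ccl24 and 0.79 (SE 0.20) for Prg2. These comparisons share the 4T1 libraries with those against the glands.

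None of these genes was called higher in Py230 tumors than in C57BL/6 Matrigel glands. At week 1 none of the 7 passed by limma, adjusted or at an unadjusted p of 0.05, where 0.00924% of all genes passed. At week 3 Ccl11 alone passed and was lower, by 0.42 (SE 0.12, limma adjusted p = 0.0167), against 19.7% of all genes in either direction. This call was lost when only the 2 groups were fitted (adjusted p = 0.217), without Py230 replicate 1 (difference -0.19, adjusted p = 0.298) and without C57BL/6 replicate 1 or 2 (adjusted p = 0.0511 and 0.0567). At week 6 Ear2, Ccl11, Ccl24 and Prg2 were lower, 4 of the 7, against 18.7% of all genes, and 2 passed without C57BL/6 replicate 3. Rnase2a, not tested, differed from the glands by -0.14, -0.03 and 0.00 at the 3 time points.

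Ear2, the second ribonuclease, was high in the same 4T1 tumors as Rnase2a but showed another picture elsewhere. The authors' tables give its row the further symbols Ear3 and Ear12, and that of Ear6 the symbol Ear7, so their values may stand for several family members. Its scores in 4T1 tumors were 1.81, 0.88 and 1.72 at week 1, 1.74, 0.95 and 0.65 at week 3, and -0.71, -0.68 and -0.47 at week 6. In BALB/c glands they were 0.42, 0.03 and 0.54, then 0.44, 0.32 and 0.28, and then 0.34, 0.02 and -0.32. The tumors were above the glands in the first 2 weeks sampled and below all 3 glands at week 6, with no overlap in any week.

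In C57BL/6 glands Ear2 stayed between 0.46 and 0.75 in all 9 libraries, where Rnase2a was near its lowest. Py230 tumors had Ear2 scores of 0.36, 0.61 and 0.62, then -0.03, 0.45 and 0.46, and then -0.06, -0.13 and 0.01. The 4T1 tumors differed from their glands by 1.14 (SE 0.22, limma adjusted p = 0.00467) at week 1, 0.77 (SE 0.22, adjusted p = 0.0492) at week 3 and -0.64 (SE 0.22, adjusted p = 0.0138) at week 6. The early calls were lost without 4T1 replicate 3 or BALB/c replicate 2 at week 1 (adjusted p = 0.0542 and 0.0509), and at week 3 without 4T1 replicate 1 (0.45, adjusted p = 0.534) or any 1 BALB/c gland (adjusted p of 0.0889 to 0.159). At week 6 the call was lost without BALB/c replicate 1 (-0.47, adjusted p = 0.0916). Py230 tumors at week 6 were 0.60 below their glands (SE 0.22, adjusted p = 0.0251), a call lost without Py230 replicate 1 or 2 or C57BL/6 replicate 3 (adjusted p of up to 0.0763).

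Of the 5 measured genes of the ribonuclease family other than Rnase2a, 4 passed as higher in 4T1 tumors than in BALB/c glands at week 1, against 9.91% of all genes, and their median difference was 0.68 against -0.0068 over all genes. Beside Ear2, Ear10 was 0.68 higher (adjusted p = 0.0048), Ear1 0.37 and Ear6 0.32 higher, and Rnase2b differed by 0.73 (adjusted p = 0.082). Ear1 and Ear6 had low scores, and their tumors and glands overlapped. Ear1 had -1.27, -1.82 and -1.33 in the tumors and -1.84, -1.88 and -1.81 in the glands. Ear6 had -1.54, -2.12 and -1.58 in the tumors and -2.04, -2.05 and -2.10 in the glands. The values of Ear1 and Ear10 share stretches of sequence with Ear2. At week 6 the median difference was 0.02, with Ear1 and Ear6 higher and Ear2 lower, where 38.6% of all genes were higher and 21.5% lower. Between the strains' glands at weeks 3 and 6, Rnase2a was the only 1 of the 6 measured family members to pass. Of all genes, 3.77% and 3.84% passed there.

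Prg2, which encodes major basic protein, was the only granule protein gene with expression values, and it did not follow Rnase2a closely. It had a mean normalized count of 30.3 in the authors' table, Epx one of 1.71, and Epx and Prg3, a second major basic protein gene, had no expression values. Prg2 scores in 4T1 tumors were -0.41, -0.71 and -0.53 at week 1, -0.31, -1.02 and -0.80 at week 3, and -0.85, -0.68 and -0.93 at week 6. In BALB/c glands they were -0.97, -1.23 and -0.90, then -1.13, -1.09 and -1.17, and then -0.99, -1.33 and -1.10. The tumors were higher in each week without overlap. In C57BL/6 glands Prg2 lay between -0.90 and -0.54, above the BALB/c glands at all 3 time points.

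Prg2 was 0.48 higher in 4T1 tumors than in BALB/c glands at week 1 (SE 0.14, limma adjusted p = 0.0258), and the differences of 0.42 (adjusted p = 0.0927) and 0.32 (adjusted p = 0.0555) at weeks 3 and 6 did not pass. The first call was lost without 4T1 replicate 1 or 3 or BALB/c replicate 2, with adjusted p of 0.106 to 0.155. The later values passed without 4T1 replicate 2 at week 3 (adjusted p = 0.0271) and without BALB/c replicate 1 at week 6 (adjusted p = 0.0391). In Py230 tumors Prg2 scores ranged from -1.26 to -0.70, and at week 6 they were 0.47 below the glands (SE 0.14, adjusted p = 0.00862).

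Siglecf and Ccr3, the surface receptors, had their highest group means in the 4T1 tumors of weeks 1 and 3, as Rnase2a did. Siglecf scores in 4T1 tumors were 0.43, -0.15 and 0.42 at week 1, 0.66, 0.37 and -0.01 at week 3, and -0.60, -0.79 and -0.43 at week 6. In BALB/c glands they were -0.49, -0.60 and -0.39, then 0.09, -0.94 and -0.19, and then -0.16, -0.45 and -0.79. The tumor with the lowest Siglecf at week 1 and the glands with the lowest Siglecf at weeks 3 and 6 were also the lowest for Rnase2a in their groups. The gland with the lowest Siglecf at week 1 was instead the highest for Rnase2a, and the lowest tumor at week 6 was not the same for the 2 genes.

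Siglecf was 0.73 higher in 4T1 tumors than in BALB/c glands at week 1 (SE 0.19, limma adjusted p = 0.0149) and 0.68 higher at week 3 (SE 0.19, adjusted p = 0.0491), where 1 tumor lay within the range of the glands. The call at week 1 was lost without 4T1 replicate 1 or 3 or BALB/c replicate 2 (adjusted p of up to 0.102). At week 3 it was lost without 4T1 replicate 1 or 2 or BALB/c replicate 2 or 3, and the difference without BALB/c replicate 2 was 0.39 (adjusted p = 0.301). In C57BL/6 mice Siglecf lay between -0.75 and -0.32 in Py230 tumors and between -0.85 and -0.09 in glands. The BALB/c glands overlapped this range. Between the strains' glands Siglecf did not pass at weeks 1, 3 and 6 (limma adjusted p = 0.658, 0.619 and 0.565).

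Ccr3, the eotaxin receptor, had scores of 0.42, -0.38 and 0.76 in 4T1 tumors at week 1, 0.88, 0.68 and 0.40 at week 3, and -0.65, -0.60 and -0.47 at week 6. In BALB/c glands they were -0.28, -0.38 and 0.04, then 0.12, -0.72 and 0.05, and then 0.35, 0.02 and -0.96. The differences were 0.48 (SE 0.25, limma adjusted p = 0.182) at week 1, 0.84 (SE 0.25, adjusted p = 0.0624) at week 3 and -0.38 (SE 0.25, adjusted p = 0.201) at week 6, and none passed. Tumors and glands did not overlap at week 3, and without 4T1 replicate 3 the difference there was 0.96 (adjusted p = 0.0334). Without 4T1 replicate 2 the difference at week 1 was 0.80 (adjusted p = 0.0214), and without BALB/c replicate 3 that at week 6 was -0.76 (adjusted p = 0.00699). Ccr3 in C57BL/6 mice ranged from -0.77 to -0.13 in Py230 tumors and from -0.35 to 0.29 in glands.

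Siglecf and Ccr3 belong to a list of 8 genes of eosinophil surface and lineage, all measured. Of these, 6 were higher in 4T1 tumors than in BALB/c glands at week 1 (median difference 0.53, all genes -0.0068), 5 at week 3 (0.61, all genes -0.010) and 0 at week 6 (-0.06, all genes 0.065), where 9.91%, 2.10% and 38.6% of all genes were higher. Alox15, a lipoxygenase of eosinophils and some macrophages, was 0.81 higher at week 1 (adjusted p = 0.048). Its scores overlapped, with 1.34, 0.01 and 1.33 in the tumors and -0.04, 0.32 and -0.04 in the glands. Il5ra, the specific chain of the interleukin 5 receptor, was 0.63 higher at week 3 (adjusted p = 0.040). There the tumors had -0.12, -0.34 and -0.74 and the glands -1.01, -1.30 and -0.76, without overlap. None of the 8 passed between Py230 tumors and their glands at any time point. Of all genes, 0.00924%, 19.7% and 47.6% passed there in either direction at weeks 1, 3 and 6.

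Macrophage markers were higher in 4T1 tumors too, also at week 6. Of 8 general macrophage markers, 6, 5 and 5 were higher than in BALB/c glands at weeks 1, 3 and 6, where 9.91%, 2.10% and 38.6% of all genes were, with Csf1r and Cd68 among them at week 1. Their mean score over the list was 1.52 to 1.71, 1.35 to 1.90 and 1.40 to 1.45 in the tumors and 0.87 to 1.41, 0.89 to 1.19 and 0.82 to 1.35 in the glands. Of 7 genes of alternatively activated macrophages, 5 were higher at week 1, led by the chitinase-like Chil3 (1.94) and the resistin-like Retnla (1.02), 0 passed at week 3, and 2 were higher and 3 lower at week 6, where 38.6% of all genes were higher and 21.5% lower. The scores have no true zero, so no marker can be called absent, and the part of macrophages in the ribonuclease values was not tested.

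The eotaxins were also highest in the 4T1 tumors of the first 2 weeks sampled. Ccl11, eotaxin-1, had scores of 1.14, 0.90 and 1.29 at week 1, 1.43, 1.23 and 1.17 at week 3, and 0.15, 0.16 and 0.32 at week 6. Its scores in the 18 Matrigel glands of both strains lay between 0.66 and 0.98, so the tumors moved from the top of that range and above to well below it. Py230 tumors had 0.67, 0.87 and 0.80, then -0.06, 0.56 and 0.67, and then 0.11, 0.13 and 0.25.

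Against BALB/c glands, Ccl11 in 4T1 tumors differed by 0.31 (SE 0.12, limma adjusted p = 0.0726) at week 1 and 0.42 (SE 0.12, adjusted p = 0.0532) at week 3, neither of which passed, and was 0.57 lower at week 6 (SE 0.12, adjusted p = 0.000273). Py230 tumors were likewise 0.62 below C57BL/6 glands at week 6 (SE 0.12, adjusted p = 0.000167). The calls at week 6 held without any 1 library compared. Without 4T1 replicate 2 the difference at week 1 was 0.42 (adjusted p = 0.0221), and without 4T1 replicate 3 that at week 3 passed (adjusted p = 0.0315).

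Ccl24, eotaxin-2, which macrophages are known to make, had scores of 1.40, 0.60 and 1.39 in 4T1 tumors at week 1, 1.32, 0.81 and 0.73 at week 3, and 0.13, 0.40 and 0.14 at week 6. In BALB/c glands they were 0.47, 0.18 and 0.34, then 0.61, 0.20 and 0.28, and then 0.57, 0.40 and 0.07. Ccl24 was 0.81 higher in the tumors at week 1 (SE 0.22, limma adjusted p = 0.0163), a call lost without 4T1 replicate 1 or 3 or BALB/c replicate 2 (adjusted p of up to 0.114). The differences of 0.59 (adjusted p = 0.117) and -0.12 (adjusted p = 0.642) at weeks 3 and 6 did not pass. In Py230 tumors Ccl24 was 0.61 below the glands at week 6 (SE 0.22, adjusted p = 0.0227), a call lost without Py230 replicate 3 or C57BL/6 replicate 3 (adjusted p = 0.0712 and 0.0922).

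Of 5 measured chemokine genes listed as CCR3 ligands, 3 were higher in 4T1 tumors than in BALB/c glands at week 1 (median difference 0.81), against 9.91% of all genes. Beside Ccl24 these were the monocyte chemoattractants Ccl7 (1.12, limma adjusted p = 0.0082) and Ccl8 (1.08, adjusted p = 0.0090). Whether each mouse protein binds CCR3 was not examined. At week 3 Ccl8 alone passed (1.07, adjusted p = 0.031), against 2.10%, and the difference without 4T1 replicate 1 was 0.73 (adjusted p = 0.403). At week 6 Ccl7 was higher, a call lost without BALB/c replicate 2 (adjusted p = 0.0530), and Ccl11 lower.

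Il5 was near the lower end of the scores in every library, between -2.09 and -1.71, with a mean normalized count of 3.13. Its scores in 4T1 tumors were -1.75, -1.89 and -1.82 at week 1, -1.71, -1.74 and -1.71 at week 3, and -1.85, -1.80 and -1.89 at week 6, and the 9 BALB/c glands lay between -2.06 and -1.95. The tumors were above the glands in each week without overlap, by 0.16 (SE 0.05, limma adjusted p = 0.0372), 0.29 (SE 0.05, adjusted p = 0.0140) and 0.20 (SE 0.05, adjusted p = 0.00241). The first of these calls was lost without any 1 of 5 libraries, all but 4T1 replicate 2 (adjusted p of up to 0.175), and the second without 4T1 replicate 1 or BALB/c replicate 2 (adjusted p of up to 0.148). The third was lost under cyclic loess scaling (0.05, adjusted p = 0.370) and a robust line to the median library (0.10, adjusted p = 0.0602).

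Of the 5 measured genes of eosinophil growth and type 2 cytokines, 3, 2 and 3 were higher in 4T1 tumors than in BALB/c glands at weeks 1, 3 and 6, where 9.91%, 2.10% and 38.6% of all genes were. Il13, a type 2 cytokine, was 1.03 higher at week 3 (adjusted p = 0.024). Its scores in those tumors were 0.22, -1.23 and -0.97, and without 4T1 replicate 1, the highest, the difference was 0.59 (adjusted p = 0.249). At week 6 the epithelial alarmins Il33 and Tslp were 0.48 (adjusted p = 0.042) and 1.51 (adjusted p = 1.1e-06) higher. The call of Il33 was lost without 4T1 replicate 1 or 3 or BALB/c replicate 1 or 3 (adjusted p of 0.0573 to 0.189). Of 7 genes of type 2 cytokine signalling, 4, 3 and 3 were higher and 0 lower at the 3 time points, the last near the share of all genes, with the receptor chains Il2rg and Il4ra leading at week 1.

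**Figure D3:**
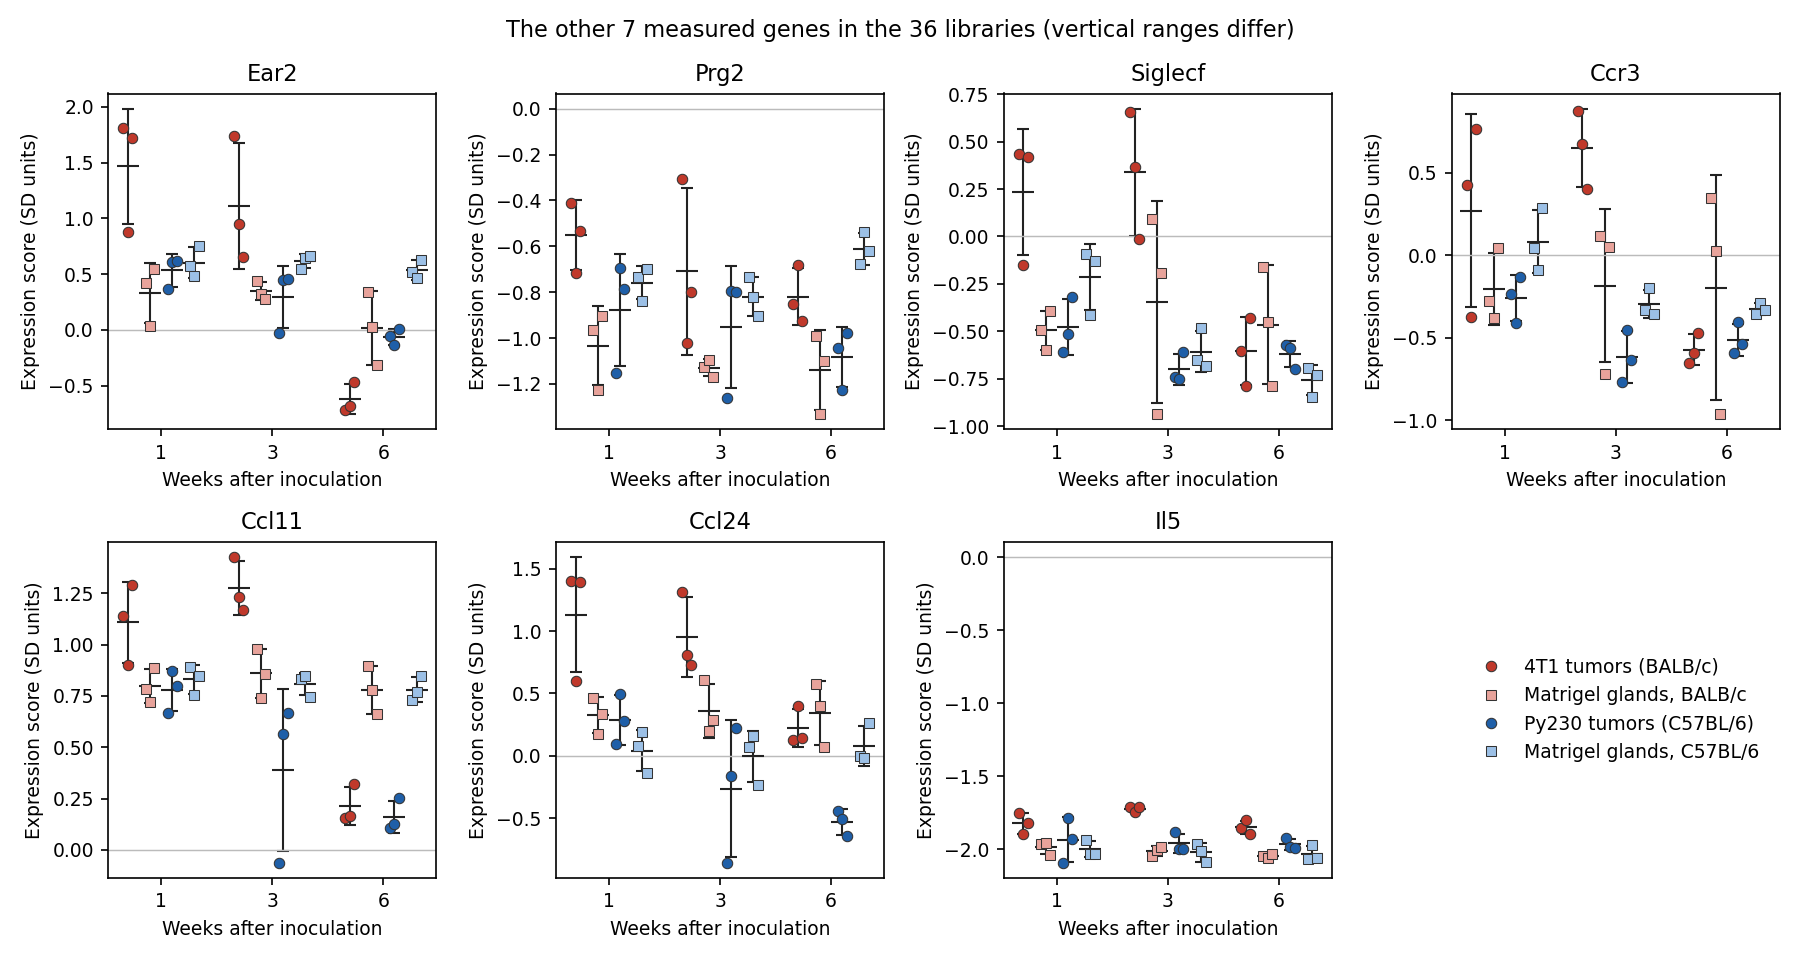
Expression scores (vertical axis, SD units within a library; the ranges differ between panels) of Ear2, Prg2, Siglecf, Ccr3, Ccl11, Ccl24 and Il5 against weeks after inoculation. Points are libraries, and marks with bars are the group mean and SD (n = 3). In 4T1 tumors Ear2 runs from 1.81 at week 1 to -0.71 at week 6, while Prg2 and Il5 move over narrower ranges.

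Between weeks 3 and 6 the genes that had been high in 4T1 tumors dropped together, Prg2 excepted. Mean Rnase2a, not tested, was 1.51 ± 0.69 (SD, n = 3) at week 3 and -0.19 ± 0.40 (SD, n = 3) at week 6. Of the other 7 genes, 6 fell by limma's test, against 18.8% of all genes that fell. Ear2 fell by 1.73 (SE 0.22, adjusted p = 3.46e-07), Ccr3 by 1.22 (SE 0.25, adjusted p = 0.000228), Ccl11 by 1.06 (SE 0.12, adjusted p = 7.46e-08), Siglecf by 0.94 (SE 0.19, adjusted p = 0.000215) and Ccl24 by 0.73 (SE 0.22, adjusted p = 0.00663). Il5 fell by 0.13 (SE 0.05, adjusted p = 0.0442), a call lost without any 1 of 5 of the 6 libraries (adjusted p of up to 0.144), 4T1 replicate 2 at week 6 being the exception. Ccl24 was not called without 4T1 replicate 1 of week 3 (-0.54, adjusted p = 0.0525). Prg2 differed by -0.11 (SE 0.14, adjusted p = 0.536). From week 1 to week 3 none of the 7 passed in 4T1 tumors, where 0.628% of all genes did, and none was below 0.05 unadjusted. In this interval Ear2 was called as lower without 4T1 replicate 1 of week 3 (-0.67, adjusted p = 0.0290).

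Markers of other cell types also changed in the 4T1 samples in this interval, in which 34.2% of all genes rose and 18.8% fell. All 6 adipocyte markers and all 5 milk protein genes fell, the adipocyte list from mean scores of 0.59 to 2.12 to between -0.40 and -0.07, while 4 of 8 neutrophil markers rose, S100a8 and S100a9 among them. Of the 8 general macrophage markers 1 fell, Adgre1, a call lost without 4T1 replicate 1 of week 3 (adjusted p = 0.0875), and 7 did not pass. Of the 7 genes of alternatively activated macrophages 4 fell and 1 rose, with Retnla the largest change at -2.75 (adjusted p = 1.5e-09). Of the 8 genes of eosinophil surface and lineage 6 fell (median difference -0.65, all genes 0.052). The part of these changes in the fall of the eosinophil genes was not tested.

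In Py230 tumors none of the 7 genes passed from week 3 to week 6, adjusted or at an unadjusted p of 0.05, where 6.03% of all genes passed. Without Py230 replicate 1 of week 3 Ccl11 was called as lower (-0.45, limma adjusted p = 0.00204). From week 1 to week 3 Ccl11 fell by 0.39 (SE 0.12, limma adjusted p = 0.0250), against 20.0% of all genes in either direction. When only the 2 groups were fitted the call was lost (adjusted p = 0.270), and the difference without Py230 replicate 1 of week 3 was -0.16 (adjusted p = 0.375). The call was also lost without Py230 replicate 2 or 3 of week 1 (adjusted p = 0.0912 and 0.0745), and Ccl24 passed without replicate 3 of week 3 (-0.80, adjusted p = 0.00796).

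The difference between the models in these changes was put to limma's interaction test. The tumor libraries are those whose difference selected Rnase2a, which is left out, so the calls are a description. From week 3 to week 6 the change in 4T1 tumors was below that in Py230 tumors for 4 of the 7 genes, Ear2, Ccr3, Siglecf and Ccl11, where 8.88% of all genes passed in that direction, and the count stayed at 4 without any 1 library. From week 1 to week 3 Ccl11 alone passed, with the 4T1 change 0.56 above that in Py230 tumors (SE 0.17, limma adjusted p = 0.0282), where 15.3% of all genes passed, and the call was lost when only the 4 groups were fitted (adjusted p = 0.234). Without Py230 replicate 1 of week 3 this was 0.33 (adjusted p = 0.126), and the call was also lost without 4T1 replicate 1 or 2 or Py230 replicate 2 or 3 of week 1 (adjusted p of 0.0510 to 0.0698), while Il5 passed without Py230 replicate 1 of week 1 (0.20, adjusted p = 0.0423).

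Over the 36 libraries the genes whose scores were most like those of Rnase2a were Lilra6 (Pearson r = 0.928), Serpina3h (0.923), Pira11 (0.895), H2-Ea-ps (0.885) and Gm44751 (0.876), among 13567 genes whose mean normalized count reached 100. Among the eosinophil genes r was 0.844 for Ccl24 (rank 17), 0.804 for Siglecf (rank 44), 0.691 for Ccr3 (rank 247), 0.584 for Ccl11 (rank 678) and 0.482 for Ear2 (rank 1238). It was 0.598 for Il5 and 0.237 for Prg2, whose mean normalized counts were below 100 and which were not ranked. These values include the strain difference, which all libraries of a mouse strain share.

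Once each library's group mean was removed, r with Rnase2a was 0.767 for Ccr3, 0.747 for Siglecf, 0.734 for Ear2, 0.625 for Ccl24, 0.513 for Ccl11, 0.254 for Prg2 and 0.073 for Il5 over the 36 libraries. The spread of Rnase2a within groups came mostly from BALB/c mice, where 4T1 replicate 2 at week 1 and the BALB/c glands replicate 2 at week 3 and replicate 3 at week 6 were low in Rnase2a, Siglecf and Ccr3 together. The granule gene Prg2 did not show it to the same degree in those libraries. After the same removal, r of Prg2 was 0.693 with Ear2, 0.647 with Ccl24 and 0.643 with Ccl11. It was lower with Il5 (0.324), Siglecf (0.283) and Ccr3 (0.234). The points share library, tissue block and scaling, and the correlations are a description.

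**Figure D4:**
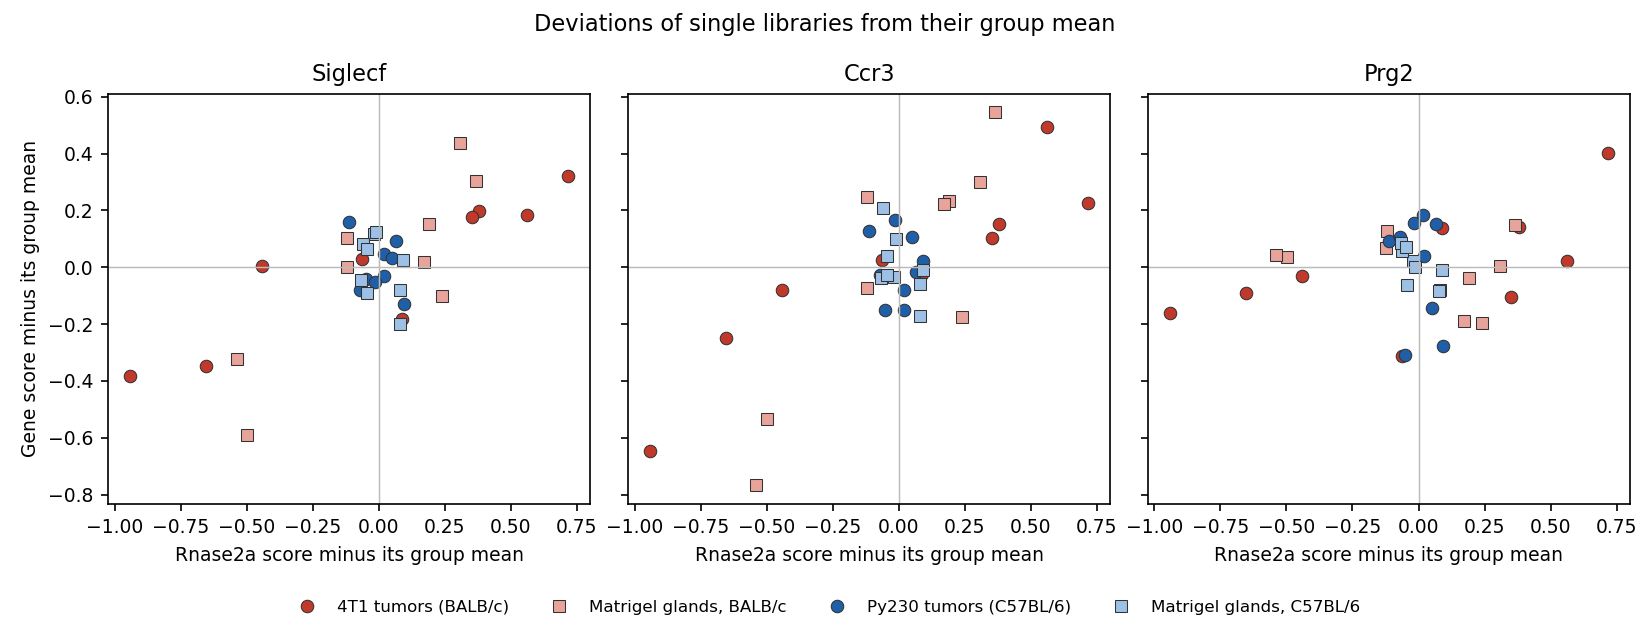
Score of Siglecf, Ccr3 and Prg2 minus the group mean (vertical axis, score units) against the same for Rnase2a (horizontal axis) in the 36 libraries. Libraries low in Rnase2a within their group tended to be low in Siglecf and Ccr3 (r = 0.747 and 0.767), while Prg2 showed a looser relation (r = 0.254), and C57BL/6 libraries lie close to 0 on the horizontal axis.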

How the data were processed

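Bulk RNA of tumors and Matrigel glands was sequenced in 36 libraries, 3 per group. Per the study's methods, the authors made stranded libraries, read pairs of 75 bases, aligned them with STAR to mm10 and counted reads per gene, with DESeq2 for normalization. The authors deposited standardized score values for each library, with a step that is not given in the sources used here, and these scores were analysed, because counts were not analysed here. From the authors' tables of 4T1 against Py230 tumors only the mean normalized count per gene was used. Their fold changes and p-values were not. Scores were fitted in R 4.3.3 with limma 3.58.1 (1 mean per group, empirical Bayes with trend and robust), and p-values were adjusted by Benjamini-Hochberg over 21650 genes with a threshold of 0.05. In data simulated for 4T1 tumors against BALB/c glands at week 1 over 21650 genes, 86 of 100 shifts of 0.5 and 96 of 100 shifts of 1 were recovered, with 12 false calls. The simulated noise was independent, with 1 spread per gene in all groups and no deviation shared by the genes of a library. These rates may therefore not hold for the data, where spreads differed between groups and calls turned on single libraries. Gene names came from the authors' tables, and 5384 from GENCODE on the same build. Members and gene lists were chosen with earlier results of these data known. All 9 genes were named, and from each list the counts and up to 2 called genes with the largest differences were named, with other list genes chosen after their values were seen. Same-numbered libraries were not paired, since 16 of 48 pairs of libraries correlated above 0.1 (range -0.466 to 0.789) after removal of group means. The alternatives tried were a fit to the groups compared alone, cyclic loess scaling, a robust line to the median library, a mean normalized count of at least 10, moderation without trend, a replicate block and leaving out each library. For the list genes, after the values were seen, the first and last of these were added.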

Additional observations from a re-analysis of the deposited data

Results flagged for a closer look

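In 5 cases a change over time differed between the models by limma's interaction test across all genes. The tumor libraries compared are those that selected Rnase2a, so these cases are a description. From week 3 to week 6 the change in 4T1 tumors minus the change in Py230 tumors was -1.38 for Ear2 (SE 0.31, adjusted p = 0.00155), -1.33 for Ccr3 (SE 0.36, adjusted p = 0.00681), -1.02 for Siglecf (SE 0.27, adjusted p = 0.00654) and -0.84 for Ccl11 (SE 0.17, adjusted p = 0.000689). From week 1 to week 3 it was 0.56 for Ccl11 (SE 0.17, adjusted p = 0.0282). Every 4T1 library at week 6 was below every 4T1 library at week 3 for the 4 genes of the later interval. In that interval 18.8% of all genes fell by limma's test in 4T1 tumors. How many of all genes had no overlap was not counted, so this separation is a description.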

How the results depend on the processing

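Every call shares 1 estimate of spread per gene over the 12 groups. When only the groups compared were fitted, the number of genes passing was 0, 2 and 4 for 4T1 against Py230 tumors at weeks 1, 3 and 6, 0 and 0 for 4T1 tumors against BALB/c glands at weeks 1 and 3, 0 for Py230 tumors against C57BL/6 glands at week 3, 3 between the strains' glands at week 3, and 0 both for the change in Py230 tumors and for the difference between the models from week 1 to week 3. For the last of these, cyclic loess scaling gave 2. With the Matrigel strain difference subtracted, the week 6 difference in Rnase2a between 4T1 and Py230 tumors was -0.23. Without 1 library at a time, the number passing ranged from 1 to 5 and 1 to 2 for 4T1 against Py230 tumors at weeks 1 and 6, 0 to 7 and 0 to 5 for 4T1 tumors against glands at weeks 1 and 3, 0 to 1 and 2 to 4 for Py230 tumors against glands at weeks 3 and 6, 1 to 2 between the strains' glands at week 6, 0 to 1 for 4T1 tumors from week 1 to week 3, 0 to 2 for Py230 tumors from week 1 to week 3, 0 to 1 from week 3 to week 6, and 0 to 2 for the difference between the models from week 1 to week 3. The cause of these shifts was not tested, and the share of all genes passing was not counted in these fits. Libraries with the same number were not shown to be paired. With the replicate block the number passing for 4T1 tumors against BALB/c glands at week 3 was 4, Ccl11 being added, and it equalled the main number in every other comparison, while the genes called over the whole table for that contrast went from 704 to 930. For single genes with an adjusted p under 0.1, 203 values under the other settings stayed on their side of the threshold, 13 lost their call and 2 gained one, with no change of direction. Without 1 library, 192 stayed, 54 lost and 6 gained a call. Depth is unknown, so a low gene such as Il5 cannot be given a counting error.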
